A study of Arabidopsis thaliana with 9 samples.

Results

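The 6 genes described here belong to families known for proteins that loosen or remodel the plant cell wall. They are the expansin-like gene EXLA1 (AT3G45970), the expansins EXPA8 (AT2G40610) and EXPA15 (AT2G03090), and the xyloglucan endotransglucosylase/hydrolases EXGT-A3 (AT2G01850), XTH16 (AT3G23730) and XTH18 (AT4G30280). They were followed by locus on Affymetrix ATH1 arrays of Arabidopsis thaliana seedlings, through the probe set that the platform annotation pairs with each gene alone. Each of the 6 genes has 1 such probe set, so no choice between a brighter and a dimmer one was needed. They are 6 of 29 measured genes among the 71 that the RefSeq gene table names as expansins or as xyloglucan endotransglucosylases, and 6 of 13286 measured genes in all. The 6 loci were chosen with earlier results of these same arrays known, and are treated as selected on the difference between the knockdown lines and Col-0, since all 6 pass there. Their values in that comparison are given as a description, and neither the number that passed nor the direction supports anything. The comparison of both transgenic kinds uses the same AtSPP-knockdown arrays, and that of the AtSPP-overexpressed lines the same Col-0 arrays, so neither is independent of the choice.

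The 3 groups of seedlings, all in the Col-0 background, were grown on 0.8% agar for 7 days, and RNA was extracted from whole plants, 20 of them mixed per sample. AtSPP-overexpressed plants carry the full-length gene of signal peptide peptidase behind the CaMV 35S promoter, which is active in most tissues. The labels name a different vector (pZH2B, pZH3B, pZH4B) for each of the 3 samples, whereas the study's supplement names pZH2B alone. AtSPP-knockdown plants carry sense and antisense copies of a piece of AtSPP, of 600 bp in replicate 1 and of 400 bp in replicates 2 and 3, and Col-0 carried no construct. Each group had 3 arrays, the growth protocol speaks of 3 lines of each transgenic kind, and of the Col-0 samples only pooling of plants is stated. The p-values therefore refer to the scatter among these samples, part of which can be technical.

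The wall of a growing plant cell holds cellulose microfibrils that are tethered and coated by xyloglucan. Expansins are secreted proteins that loosen contacts between these polymers without cutting them, and xyloglucan endotransglucosylase/hydrolases (XTHs) cut xyloglucan chains and rejoin or hydrolyse the ends. Both families are large, are made with a signal peptide and enter the secretory pathway, and their genes are known to follow growth, light and mechanical stimulation in seedlings. Signal peptide peptidase, the product of AtSPP, cleaves signal peptides inside the membrane of the endoplasmic reticulum after they have been cut from their proteins.

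Signals had been normalized by the authors with an algorithm called distribution free weighted (DFW), after which most probe sets were almost equal on all arrays. The median SD over the 9 arrays was 5.38e-06 per probe set, so differences below are in DFW units, or in thousandths of a DFW unit, and are not fold changes. No source used here gives the base of the log or says which probe sets were detected, and precision is limited by the 3 arrays in each group. In bulk RNA of whole seedlings, fewer cells that use a gene and less RNA of it per cell cannot be told apart. AtSPP itself, used as a check of the labels, lay 183 to 253 thousandths above the Col-0 mean on the AtSPP-overexpressed arrays and -55.6 to -37.1 thousandths from it on the AtSPP-knockdown arrays, outside the range of the Col-0 arrays in each case. The difference of AtSPP from Col-0 passed for AtSPP-overexpressed plants (limma adjusted p = 0.0140) and not for AtSPP-knockdown plants (limma adjusted p = 0.125). Of 10 markers of green tissue 2 were measured, and RCA, which encodes Rubisco activase, had a signal of 12.29 in each group. The other, LHCB4.2, was higher in the AtSPP-knockdown lines than in Col-0 (0.00982 DFW units, limma adjusted p = 0.00144). It was lower in AtSPP-overexpressed than in AtSPP-knockdown plants (-0.0115 DFW units, limma adjusted p = 0.00214). Of 10 root markers 3 were measured, and none passed in any comparison.

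EXLA1 varied more than nearly any other probe set, with the 9th largest SD of 22746. Its DFW signal on the Col-0 arrays was 7.94, 7.97 and 7.98. On the AtSPP-overexpressed arrays it was 8.06, 8.07 and 8.03. On the AtSPP-knockdown arrays it was 8.15, 8.13 and 8.15. The 3 groups did not overlap, with Col-0 lowest, the AtSPP-overexpressed arrays in the middle and the AtSPP-knockdown arrays highest. EXLA1 belongs to the expansin-like A proteins, which share the fold of expansins and for which loosening of walls has been less studied than for the EXPA proteins. The AtSPP-knockdown mean was 180 thousandths above Col-0 (standard error 14.8, 95% interval 144 to 215), the 6th largest difference of that comparison. The AtSPP-overexpressed mean was 89.1 thousandths above Col-0 (standard error 14.8), which put it 49.5% of the way from Col-0 to the knockdown mean, and this difference did not pass (limma adjusted p = 0.0706). The difference between both transgenic kinds, -90.9 thousandths, passed (limma adjusted p = 0.0254). It did not pass with the replicate number as a block (adjusted p = 0.0872) or with the 6 arrays of that comparison alone (adjusted p = 0.0539), and 6 of the 9 fits without 1 array also missed the threshold (adjusted p up to 0.0936, without AtSPP-knockdown replicate 3).

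**Figure D1:**
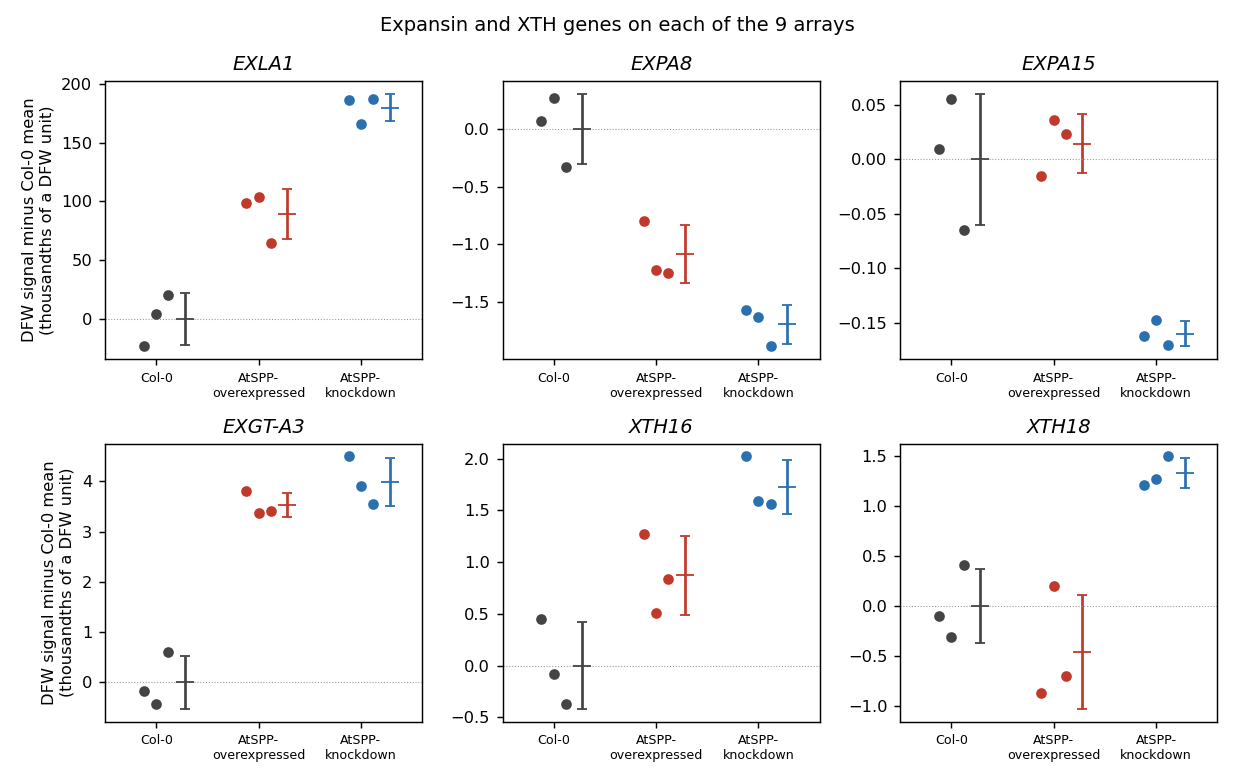
DFW signal of the 6 genes on each array, as the deviation from the mean of the 3 Col-0 arrays in thousandths of a DFW unit, with a separate scale for each gene. Points are arrays in the order of their replicate numbers, and the bars beside them give the mean ± SD of 3 arrays. The 3 groups are apart for EXLA1, EXPA8 and XTH16, while for EXPA15 and XTH18 the AtSPP-overexpressed and Col-0 arrays overlap.

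EXPA8, an α-expansin, ran the other way. Relative to the Col-0 mean, its signal was 0.070, 0.263 and -0.333 thousandths on the Col-0 arrays. It was -0.795, -1.22 and -1.24 thousandths on the AtSPP-overexpressed arrays. It was -1.57, -1.63 and -1.88 thousandths on the AtSPP-knockdown arrays. Again the 3 groups did not overlap and the AtSPP-overexpressed arrays lay in the middle, but here Col-0 was highest. The mean of the AtSPP-knockdown arrays differed from Col-0 by -1.69 thousandths (standard error 0.193, 95% interval -2.16 to -1.23). That of the AtSPP-overexpressed arrays differed from Col-0 by -1.09 thousandths (95% interval -1.55 to -0.625), or 64.1% of the way to the knockdown mean, and did not pass (limma adjusted p = 0.0778). Between both transgenic kinds the difference of 0.608 thousandths did not pass either (limma adjusted p = 0.149).

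XTH16 repeated the order of EXLA1 at a smaller scale. Its deviations from the Col-0 mean were 0.454, -0.083 and -0.372 thousandths on the Col-0 arrays. They were 1.27, 0.514 and 0.838 thousandths on the AtSPP-overexpressed arrays. They were 2.02, 1.59 and 1.56 thousandths on the AtSPP-knockdown arrays. The lowest AtSPP-overexpressed array lay only just above the highest Col-0 array, so the separation of these groups is narrow. The difference from Col-0 was 1.73 thousandths in the knockdown plants (standard error 0.279). In AtSPP-overexpressed plants it was 0.874 thousandths, 50.7% of the way there, and did not pass (limma adjusted p = 0.259). The difference of -0.851 thousandths between both transgenic kinds did not pass (limma adjusted p = 0.161).

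Of the 6 genes 3, EXLA1, EXPA8 and XTH16, thus had non-overlapping groups with the AtSPP-overexpressed arrays between the other two groups. Over all 22746 probe sets, 3.79% had this arrangement, 2.09% with rising and 1.70% with falling signal. It needs the AtSPP-knockdown and Col-0 arrays apart, the difference on which the 6 genes are treated as selected. Of the 7589 probe sets with those arrays apart, 862 had the arrangement, and nothing is read from the share among the 6. The counts of single comparisons that follow use the same arrays, so nothing is read from them either. For single comparisons, the AtSPP-knockdown and Col-0 arrays did not overlap for any of the 6 genes, 4 higher and 2 lower, against 33.4% of all probe sets (14.9% higher and 18.5% lower). The AtSPP-overexpressed and Col-0 arrays did not overlap for 4 of 6, EXLA1, EXGT-A3 and XTH16 higher and EXPA8 lower, against 17.0% (9.71% higher and 7.28% lower). Both transgenic kinds did not overlap for 5 of 6, with EXPA8 and EXPA15 higher and EXLA1, XTH16 and XTH18 lower in AtSPP-overexpressed plants, against 25.4% (15.1% higher and 10.3% lower). The share of the way from Col-0 to the knockdown mean was 88.6% for EXGT-A3, -9.07% for EXPA15 and -34.5% for XTH18. Such a share has no interval here and divides by the difference on which the 6 genes are treated as selected, so nothing is read from it.

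EXGT-A3, also called XTH27, was higher than in Col-0 in both kinds of transgenic plants. Its deviations were -0.176, -0.422 and 0.597 thousandths on the Col-0 arrays. They were 3.80, 3.37 and 3.41 thousandths on the AtSPP-overexpressed arrays. They were 4.50, 3.91 and 3.54 thousandths on the AtSPP-knockdown arrays. All 6 transgenic arrays lay above all 3 Col-0 arrays, and the transgenic groups overlapped each other. EXGT-A3 was the 1 gene of the 6 to pass when AtSPP-overexpressed plants were compared with Col-0, where 0.545% of all probe sets passed, 0.299% higher and 0.246% lower (difference 3.53 thousandths, standard error 0.340, limma adjusted p = 0.0191). The AtSPP-knockdown mean was 3.98 thousandths above Col-0. The difference between the 2 kinds of line was -0.454 thousandths with a 95% interval from -1.27 to 0.360, an interval that leaves room for a difference of either sign. The pass in the AtSPP-overexpressed lines was lost with the replicate block (adjusted p = 0.0673), and with the 6 arrays alone (adjusted p = 0.106). It was also lost when any 1 of the 3 AtSPP-overexpressed arrays, AtSPP-knockdown replicate 2 or either of Col-0 replicates 1 and 2 was left out (highest adjusted p 0.0916).

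EXPA15 and XTH18 stood apart in the AtSPP-knockdown lines and not in the AtSPP-overexpressed lines. For EXPA15, an α-expansin, deviations were 0.0095, 0.055 and -0.065 thousandths on the Col-0 arrays. They were -0.016, 0.036 and 0.023 thousandths on the AtSPP-overexpressed arrays. They were -0.162, -0.147 and -0.170 thousandths on the AtSPP-knockdown arrays. The AtSPP-knockdown arrays lay below all others, whereas those of AtSPP-overexpressed plants lay within the range of Col-0. The difference from Col-0 was -0.160 thousandths (standard error 0.030) in the knockdown lines and 0.014 thousandths in the AtSPP-overexpressed lines (95% interval -0.058 to 0.087). The test of the difference between the transgenic kinds passed (0.174 thousandths, limma adjusted p = 0.0301), although not with the replicate block (adjusted p = 0.0543), with quantile-normalized signals (0.557) or in 7 of the 9 fits without 1 array (adjusted p up to 0.107, without AtSPP-knockdown replicate 3). EXPA15 lies on chromosome 2 near AtSPP, with 3 annotated genes between them, 1 of them protein-coding.

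For XTH18, deviations were -0.103, -0.309 and 0.412 thousandths on the Col-0 arrays. They were -0.868, 0.196 and -0.699 thousandths on the AtSPP-overexpressed arrays. They were 1.21, 1.27 and 1.49 thousandths on the AtSPP-knockdown arrays. The AtSPP-knockdown arrays lay close together above all others, and AtSPP-overexpressed replicate 2 lay among the Col-0 arrays while the other two lay below them. The difference from Col-0 was 1.32 thousandths in the knockdown lines (standard error 0.314) and -0.457 thousandths in the AtSPP-overexpressed lines (95% interval -1.21 to 0.294). Between the transgenic kinds the difference of -1.78 thousandths passed (limma adjusted p = 0.0322). It missed the threshold with the replicate block (adjusted p = 0.0827), with the 6 arrays alone (adjusted p = 0.0790) and in 7 of the 9 fits without 1 array (adjusted p up to 0.112, without AtSPP-knockdown replicate 3).

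Counted together, all 6 genes passed between the AtSPP-knockdown lines and Col-0, 4 higher and 2 lower, where 13.5% of all probe sets passed, 6.56% higher and 6.94% lower. Since the choice of loci used that comparison, nothing is read from the count. Their signed median difference was 0.00153 DFW units. It comes from the same choice and mixes 4 higher and 2 lower genes, so nothing is read from it either. In AtSPP-overexpressed plants against Col-0, 1 of 6 passed, where 0.545% of all probe sets did. An unadjusted p under 0.05 in limma was found for 4 of them, against 2904 of all 22746 probe sets. The signed median difference of the 6 there, 4.44e-04 DFW units, likewise mixes genes of both directions. Between both transgenic kinds 3 of 6 passed, EXPA15 higher and EXLA1 and XTH18 lower in the AtSPP-overexpressed lines, where 4.33% of all probe sets passed, 2.26% higher and 2.07% lower. EXGT-A3 passed in the same direction in both comparisons with Col-0, as did 0.453% of all probe sets. EXLA1, EXPA15 and XTH18 set the AtSPP-knockdown lines apart in the same direction from Col-0 and from AtSPP-overexpressed plants, as did 3.74% of all probe sets. Any pair of these comparisons shares the 3 arrays of 1 group, so they are not independent of each other. By rank products, the test named in the study's methods, 4 of the 6 genes were called in AtSPP-overexpressed plants against Col-0, EXLA1, EXGT-A3 and XTH16 higher and EXPA8 lower, where 2.83% of all probe sets were called. In the knockdown lines it called 5 of the 6, all but EXPA15, against 4.70%. That test ranks differences by size within each of 9 array pairs and takes no estimate of the scatter of each probe set.

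**Figure D2:**
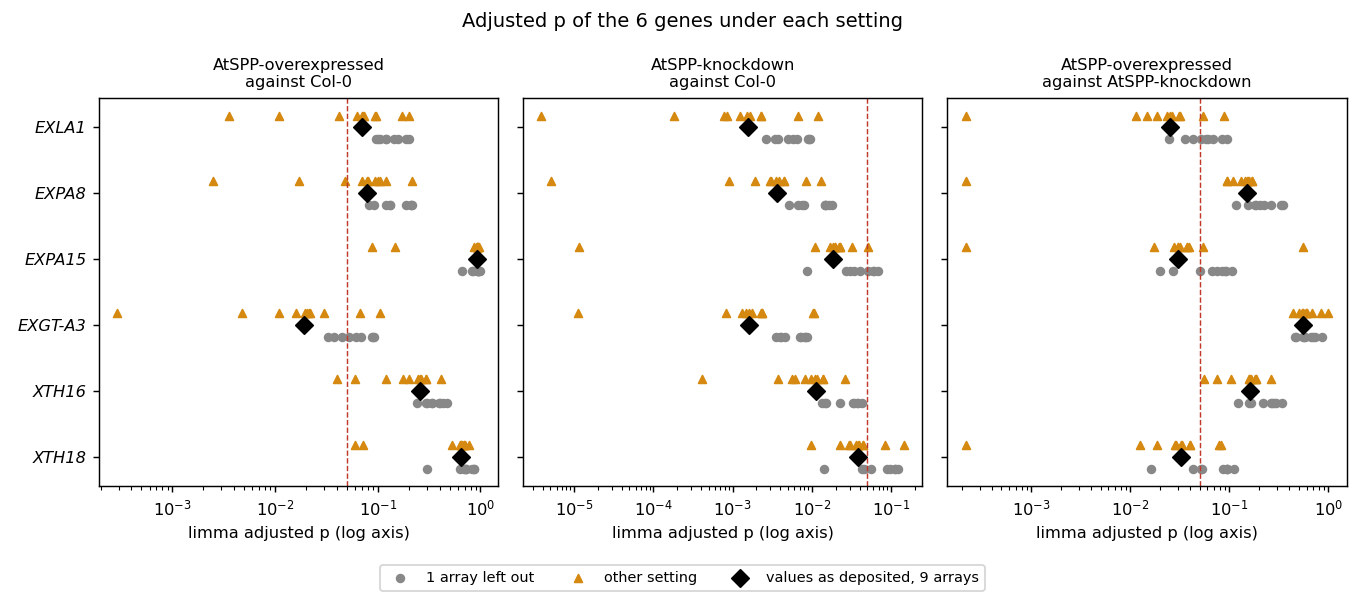
Adjusted p of the 6 genes in limma for each of the 3 comparisons, on a log axis, with the values as deposited (diamonds), other settings (triangles) and fits without 1 array (circles). The dashed line marks 0.05. EXLA1, EXPA8, EXGT-A3 and XTH16 stay left of the line at every setting shown in the comparison of the knockdown lines with Col-0, whereas in the other 2 comparisons each gene with a diamond left of the line has settings on both sides of it.

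Between the AtSPP-knockdown lines and Col-0, EXLA1, EXPA8, EXGT-A3 and XTH16 passed in each of the 9 fits without 1 array (highest adjusted p 0.0430, for XTH16). EXPA15 missed the threshold in 4 of them, those that left out any 1 AtSPP-knockdown array or Col-0 replicate 1 (highest adjusted p 0.0691). XTH18 missed it in 6, those that left out any 1 AtSPP-knockdown array, either of Col-0 replicates 1 and 2, or AtSPP-overexpressed replicate 3 (highest adjusted p 0.123). EXPA15 also missed it with the 6 arrays of the comparison alone (adjusted p = 0.0513), and XTH18 with quantile-normalized signals (adjusted p = 0.147) and with the replicate block (adjusted p = 0.0838). In AtSPP-overexpressed plants against Col-0, some settings added calls, over all probe sets as well. Quantile normalization called 2625 of 22746 probe sets there, against 124 as deposited. Centring on array medians called 354, and the fit without the dimmer probe sets 227 of 11373. EXLA1 passed there with quantile-normalized signals (adjusted p = 0.0109), with centring on array medians (0.00353) and without the dimmer probe sets (0.0420). EXPA8 passed under the same settings (adjusted p = 0.0171, 0.00249 and 0.0478), and XTH16 with quantile-normalized signals (adjusted p = 0.0402). EXPA8 also passed between both transgenic kinds with centring on array medians (adjusted p = 2.17e-04), where 22155 of all 22746 probe sets passed. Within the knockdown group, the array of the 600 bp construct had the highest value of EXGT-A3 and XTH16, was the highest of the 3 for EXPA8 as well, the lowest for XTH18 and lay between the others for EXLA1 and EXPA15. With 1 array of that construct, this order has no test. LHCB4.2, which encodes a chlorophyll-binding antenna protein and is the other measured marker of green tissue, was also higher in the AtSPP-knockdown lines (0.00982 DFW units, limma adjusted p = 0.00144) whereas in AtSPP-overexpressed plants its difference was -0.00170 (limma adjusted p = 0.455), while RCA did not pass (1.13e-07 and 5.57e-06). The part of a different share of green tissue in the values of the wall genes was not tested.

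Of the 23 other measured genes of the expansin and XTH families, 3 passed between the AtSPP-knockdown lines and Col-0, against 13.5% of all probe sets, namely EXLA2 and XTH33 higher and XTH32 lower. In AtSPP-overexpressed plants against Col-0 none of the 23 passed in limma, where 0.545% of all probe sets did (5 at an unadjusted p under 0.05, against 2904 of 22746 probe sets). Between both transgenic kinds 3 of 23 passed, against 4.33% of all probe sets, with EXLA2 lower and XTH32 and EXLB1 higher in the AtSPP-overexpressed lines. The 23 are what remained of the family list after the 6 genes treated as selected on the knockdown difference were taken out, so their counts depend on that choice and nothing is read from them.

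EXLA2, which like EXLA1 encodes an expansin-like A protein, had deviations of -0.288, 0.505 and -0.217 thousandths on the Col-0 arrays. They were 2.69, 2.02 and 2.96 thousandths on the AtSPP-overexpressed arrays and 9.29, 6.86 and 7.12 thousandths on the AtSPP-knockdown arrays. The order and the separation of the groups were those of EXLA1, with the AtSPP-overexpressed mean 33.0% of the way to the knockdown mean. In the knockdown lines EXLA2 rose by 7.76 thousandths (standard error 0.668, limma adjusted p = 0.00168), and it differed between the transgenic kinds by -5.20 thousandths (limma adjusted p = 0.0130), a call that was lost with the 6 arrays alone (adjusted p = 0.0546). EXLA3, the remaining gene of this subfamily and the next protein-coding gene to EXLA1 on one side on chromosome 3, differed from Col-0 by -0.180 thousandths in the knockdown lines (95% interval -0.457 to 0.097, limma adjusted p = 0.405), and its 3 groups overlapped.

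XTH32, an XTH of another branch of the family, had deviations of 0.038, -0.022 and -0.016 thousandths on the Col-0 arrays. They were -0.137, -0.188 and -0.128 thousandths on the AtSPP-overexpressed arrays and -0.414, -0.320 and -0.419 thousandths on the AtSPP-knockdown arrays. It followed EXPA8, with Col-0 highest and the groups apart. In the knockdown lines XTH32 fell by 0.384 thousandths (standard error 0.033, limma adjusted p = 0.00163). That call was lost with quantile-normalized signals (adjusted p = 0.129). XTH32 differed between the transgenic kinds by 0.233 thousandths (limma adjusted p = 0.0160), a call that was lost with quantile-normalized signals (adjusted p = 0.557), the replicate block (0.0649) and the 6 arrays alone (0.0560). It was also lost without AtSPP-overexpressed replicate 1 or 3 or AtSPP-knockdown replicate 1 or 3 (highest adjusted p 0.0624). XTH33 rose by 0.326 thousandths in the knockdown lines (limma adjusted p = 0.0118) and differed by 0.223 thousandths in AtSPP-overexpressed plants (limma adjusted p = 0.152), whose 3 arrays lay 0.347, 0.138 and 0.186 thousandths above Col-0. After centring on the array medians the knockdown difference of XTH33 turned to -2.26e-04 DFW units. The knockdown call of XTH33 was lost at 1 other setting (limma adjusted p = 0.179). Its mean signal on the Col-0 arrays, 6.15, lay below the array medians of 6.30. EXLB1, an expansin-like B gene, was on opposite sides of Col-0, 0.031 thousandths higher in the AtSPP-overexpressed and -0.027 thousandths in the AtSPP-knockdown lines. Neither difference of EXLB1 passed (limma adjusted p = 0.141 and 0.0548), and the difference of 0.058 thousandths between them did (limma adjusted p = 0.0116). The latter call of EXLB1 was lost with the 6 arrays alone (adjusted p = 0.0509), and its sign turned with quantile-normalized signals (-3.44e-05 DFW units, adjusted p = 0.557).

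**Figure D3:**
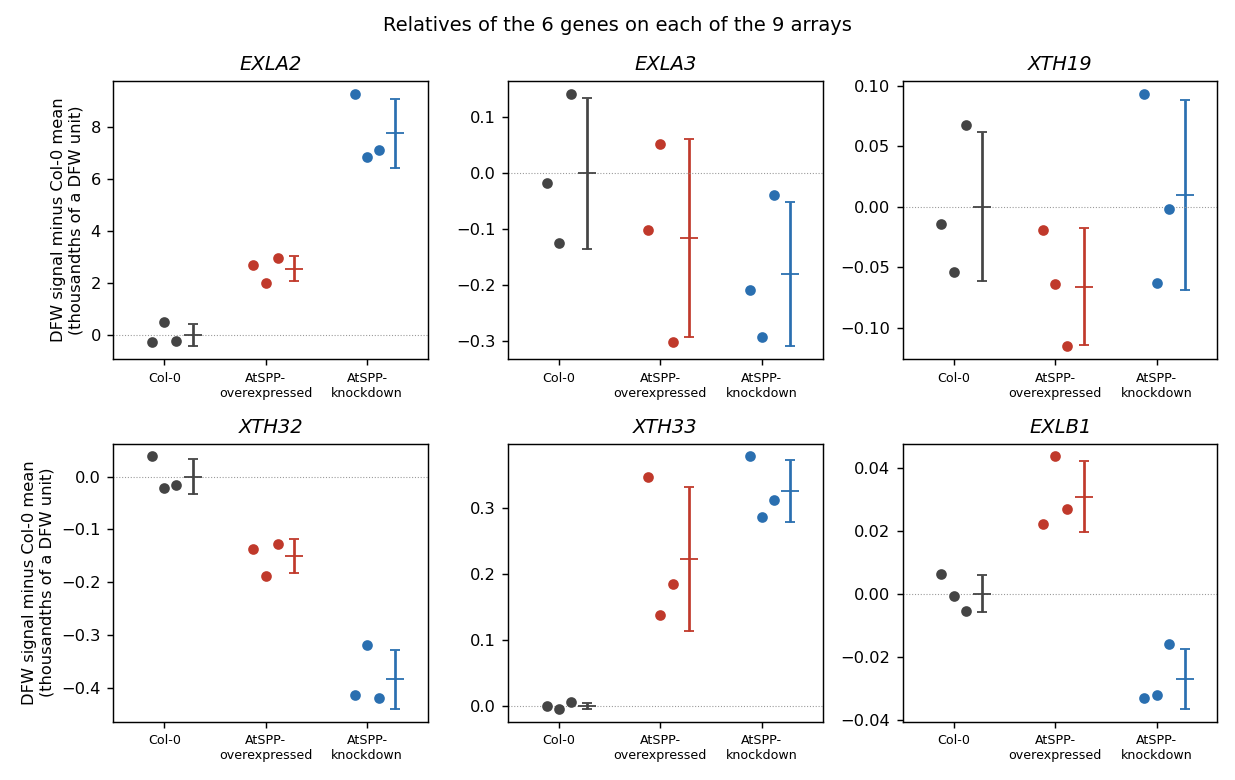
DFW signal of 6 relatives on each array, drawn as in the plot of the 6 genes, as the deviation from the Col-0 mean in thousandths of a DFW unit with mean ± SD of 3 arrays and a separate scale for each gene. EXLA2 and XTH32 have 3 groups apart, EXLA3 and XTH19 have groups that overlap, and the transgenic groups of EXLB1 lie on opposite sides of Col-0.

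Values of the other copies nearby and of the rest of the families follow. XTH19, which lies next to XTH18 on chromosome 4, differed from Col-0 by 0.0098 thousandths in the knockdown lines (95% interval -0.110 to 0.129) and by -0.066 thousandths in the AtSPP-overexpressed lines, and its groups overlapped. XTH24, on the other side of XTH18, is not analysed here. By subfamily, 2 of 10 measured EXPA genes passed in the knockdown comparison, both lower, where 13.5% of all probe sets passed. So did 0 of 4 EXPB genes (2 at an unadjusted p under 0.05 in limma, against 6093 of 22746 probe sets, and EXPB1 closest with adjusted p = 0.0601), 2 of 3 EXLA genes, both higher, 0 of 2 EXLB genes, and 5 of 10 XTH genes, 4 higher and 1 lower. The EXPA calls are 2, the EXLA calls include 1 (EXLA1) and the XTH calls include 3 of the 6 genes that were named with these results known, which leaves EXLA2, XTH32 and XTH33 as calls outside them. The root-hair expansins EXPA7 and EXPA18 differed by -0.0026 and -0.014 thousandths (limma adjusted p = 0.959 and 0.558). XTH4 and XTR6, candidate substrates of AtSPP in the study that belong to the XTH family, are not analysed here.

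**Figure D4:**
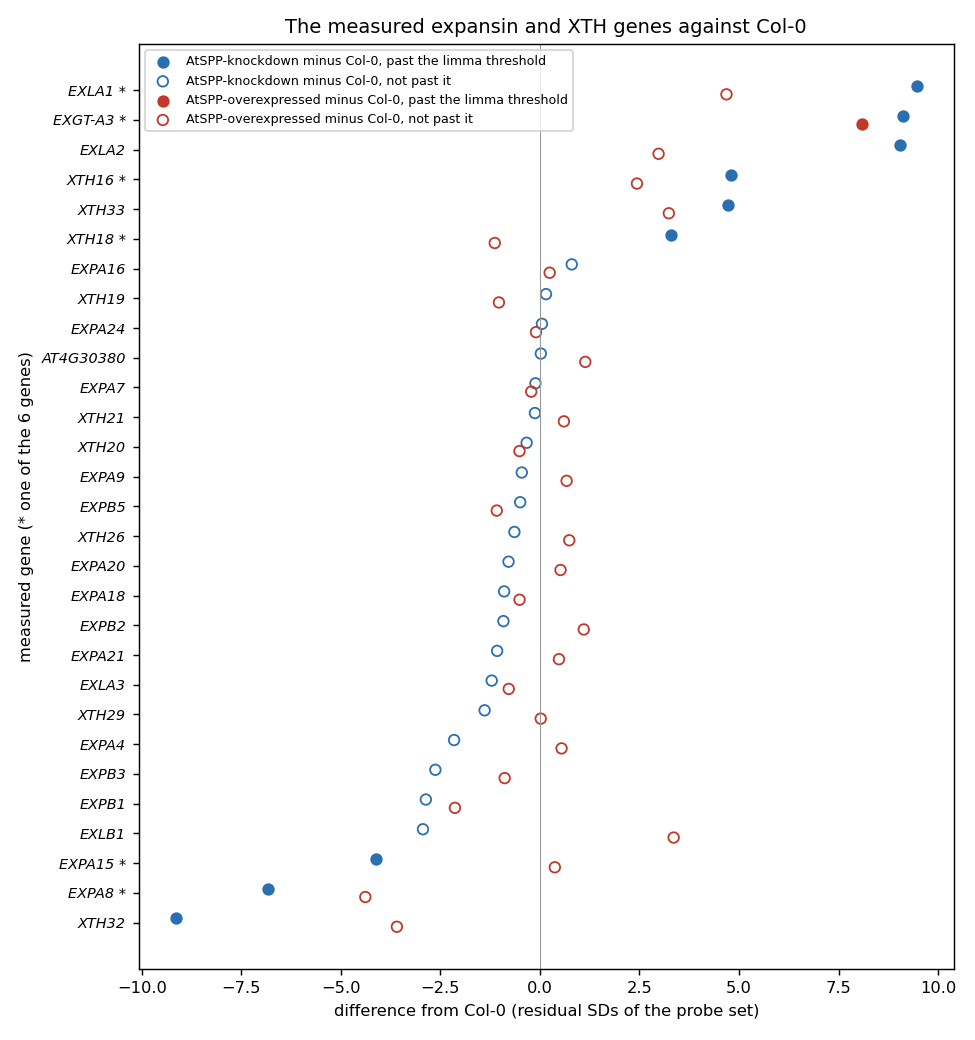
Differences from Col-0 of the 29 measured expansin and XTH genes, each in residual SDs of its own probe set, for the AtSPP-knockdown lines (blue) and the AtSPP-overexpressed lines (red), ordered by the knockdown value. Filled circles passed the limma threshold. In the knockdown lines 6 genes passed above and 3 below Col-0, in the AtSPP-overexpressed lines EXGT-A3 alone passed, and the other genes lie within 3 residual SDs in the knockdown lines.

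Measured against the spread of their own probe sets, the differences of the 6 genes in the knockdown lines were closer to each other than their DFW values are. EXLA1 differed by 9.46 residual SDs, EXGT-A3 by 9.12, XTH16 by 4.81 and XTH18 by 3.29, and EXPA8 and EXPA15 by -6.84 and -4.12. The within-group SD ranged from 11.8 to 22.1 thousandths for EXLA1 and from 0.012 to 0.060 thousandths for EXPA15, so the size of a DFW value follows the probe set as well as the change. Ranked by the size of the knockdown difference among all 22746 probe sets, EXLA1 was 6th, EXGT-A3 226th, XTH16 416th, EXPA8 420th, XTH18 512th and EXPA15 2024th.

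Other genes of the wall gave few values. Of 14 genes of xyloglucan synthesis and trimming 5 were measured, all of the CSLC family of glucan synthases that make the xyloglucan backbone, and in the knockdown lines CSLC04 rose by 5.82e-04 DFW units (limma adjusted p = 0.0341) and ATCSLC08 fell by 2.30e-05 (limma adjusted p = 0.0304). ATCSLC08 also differed between the transgenic kinds (3.32e-05, limma adjusted p = 0.0208), and none of the 5 passed in AtSPP-overexpressed plants against Col-0 (2 at an unadjusted p under 0.05 in limma). Over all probe sets, 13.5% passed in the knockdown comparison and 0.545% in that of AtSPP-overexpressed plants, and 6093 and 2904 of the 22746 had an unadjusted p under 0.05. COB, the COBRA gene needed for oriented cellulose deposition and the single measured gene of 13 in the cellulose list, rose by 3.55e-04 in the knockdown lines (limma adjusted p = 0.0206). Of 25 pectin-modifying genes 4 were measured, and none passed in limma in any comparison (1 at an unadjusted p under 0.05 in each comparison with Col-0, and 0 between both transgenic kinds, where 4441 of the 22746 probe sets had one).

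Of all measured genes, those with the profile most like the mean standardized profile of the 6 genes over the 9 arrays were SKU5 (Pearson's r of 0.987 as a measure of likeness), AT5G18600 (0.980), AT2G02160 (0.979), AT2G39580 (0.977) and AT3G23080 (0.971). SKU5 encodes a glycoprotein of the plasma membrane and wall that is known for its part in directional root growth, and its differences from Col-0 were 2.71e-04 DFW units in the AtSPP-overexpressed and 5.27e-04 in the AtSPP-knockdown lines. The 9 arrays fall into 3 groups, so these values of r mostly record the order of the group means and have no test, and the mean profile holds 4 genes that were higher and 2 that were lower in the knockdown lines. Between the 6 genes themselves, r over the 9 arrays was highest in size for EXLA1 and EXPA8, at -0.936, and for EXPA8 and EXGT-A3, at -0.916, and was 0.338 for EXGT-A3 and XTH18. Within groups, after the group means were taken out, r was -0.151 for EXLA1 and EXPA8 and -0.091 for EXPA8 and EXGT-A3. Other pairs kept or changed their values, with r within groups of -0.742 for EXPA8 and XTH18 (-0.606 over the 9 arrays), -0.724 for EXPA15 and EXGT-A3 (-0.531) and -0.713 for XTH16 and XTH18 (0.492). For EXPA8 and XTH16 it turned from -0.804 over the 9 arrays to 0.681 within groups.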

How the data were processed

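RNA of the 9 samples was hybridized to Affymetrix ATH1 arrays. The authors normalized the signals with the DFW algorithm in R, and the deposited values, 1 per probe set and array, were taken as log2 values from their range and used as deposited, with array medians of 6.30. With more digits, the median was 6.30234 on each Col-0 array and 6.30259, 6.30257 and 6.30234 on the AtSPP-overexpressed arrays. On the AtSPP-knockdown arrays it was 6.30286, 6.30290 and 6.30291, above all other arrays. Probe sets were paired with genes through the platform annotation, with symbols from the RefSeq table of TAIR10.1, used for names and gene order alone. After 64 controls were left out, 22746 probe sets remained, of which 13513 have 1 gene, 503 several and 8730 are not listed. Groups came from the sample titles. The test was limma 3.58.1 in R 4.3.3, 1 fit over 9 arrays without covariates, two-sided, Benjamini-Hochberg adjusted over all probe sets, threshold 0.05, with moderated standard errors and 95% intervals. An exact permutation test of 3 against 3 arrays cannot go below p = 0.1 and was not used. Rank products used 9 array pairs and 100 permutations within arrays. The fit was tested on simulated data with shifts in the AtSPP-knockdown arrays. It recovered 23 of 50 shifts of 5 residual SDs and 48 of 50 shifts of 10, so shifts near 5 could fail to pass in that simulation. Far fewer probe sets were shifted there than the 3072 that passed in the knockdown comparison, which makes the adjusted threshold stricter. In that comparison XTH18 passed at 3.29 residual SDs. The recovery is therefore no measure of how many shifts of a given size pass in the deposited data.

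The 6 genes and the lists were chosen with earlier results of these data known. Named genes are the 6, AtSPP, relatives that passed in any comparison, listed wall genes that passed, and the 5 most similar profiles; EXLA3, XTH19, EXPA7, EXPA18, EXPB1 and the markers were added as neighbours, subfamily members or controls after their values were seen. Alternatives changed the scaling (quantile normalization, centring on array medians or on median differences from an average array), the variance model (intensity trend, robust eBayes) and the features (no dimmer probe sets, 1-gene probe sets, means of probe sets). Others used weighted arrays, the replicate number as a block, only the 6 arrays compared, rank products, or left out each array in turn. No sequences of these genes were used here.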

Additional observations from a re-analysis of the deposited data

Results flagged for a closer look

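For 6 genes the limma comparison of the 2 kinds of transgenic lines passed, as it did for 4.33% of all probe sets. These are the calls already given above, since Col-0 cancels when the 2 differences from it are compared. EXLA1, XTH18 and EXPA15 are treated as selected on the knockdown difference, which uses the same AtSPP-knockdown arrays. The relatives are what remained after that choice, so nothing is read from the count. The value is the difference in the AtSPP-overexpressed lines minus that in the AtSPP-knockdown lines, in DFW units. It was -0.0909 for EXLA1, -0.00178 for XTH18 and 1.74e-04 for EXPA15 among the 6 genes of the report, with adjusted p of 0.0254, 0.0322 and 0.0301. Among their relatives it was -0.00520 for EXLA2, 2.33e-04 for XTH32 and 5.78e-05 for EXLB1, with adjusted p of 0.0130, 0.0160 and 0.0116. EXLA2 and EXLB1 passed in each of the 9 fits without 1 array (adjusted p up to 0.0474 and 0.0475), and EXLA1 in 3, XTH18 in 2, EXPA15 in 2 and XTH32 in 5 of them. With the 6 arrays of the 2 kinds of transgenic lines alone, EXPA15 passed (adjusted p = 0.0302), and EXLA1, XTH18, EXLA2, XTH32 and EXLB1 did not (0.0539, 0.0790, 0.0546, 0.0560 and 0.0509). With quantile normalization the calls of EXPA15 and XTH32 were lost, and the sign of EXLB1 turned (-3.44e-05). With 3 arrays in a group, no test for a single outlying array was made.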

How the results depend on the processing

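Of the 6 genes, the 1 that passed in AtSPP-overexpressed plants against Col-0 became 4 after quantile normalization and by rank products, 3 after centring on array medians or without the dimmer probe sets, and 0 with the 6 arrays alone or with the replicate block. Of the 29 family genes 1 passed, and 8, 5, 3, 3, 0 and 0 did under quantile normalization, rank products, centring on array medians, no dimmer probe sets, the 6 arrays alone and the replicate block. Calls over all probe sets in this comparison moved too, from 124 (0.545%) to 2625 (11.5%) with quantile normalization, 644 (2.83%) by rank products, 354 (1.56%) with centring on array medians, 227 of 11373 without the dimmer probe sets, 0 with the 6 arrays alone and 2 with the block. Between the transgenic kinds, 3 of the 6 became 0 with the block and 1 with the 6 arrays alone, and 6 of the 29 became 2 with the block, 1 with the 6 arrays alone and 27 after centring on array medians. Over all probe sets 986 became 590, 428 and 22155 there. In the knockdown comparison 9 of the 29 became 29 after that centring, which called 380 of all 22746 probe sets higher and 21996 lower, against 1493 and 1579 as deposited. In AtSPP-overexpressed plants against Col-0 that centring called 126 higher and 228 lower, against 68 and 56. Between the transgenic kinds it called 21862 higher and 293 lower, and quantile normalization 1963 and 416, against 515 and 471. Without 1 array, the 6 genes gave 0 to 1, 4 to 6 and 0 to 3 passes in the AtSPP-overexpressed, knockdown and transgenic comparisons, and the 29 gave 0 to 1, 7 to 10 and 2 to 6. Correlations of same-numbered deviations ran from -0.147 to 0.216. Differently numbered arrays were not set beside them, so these values cannot show whether the replicate number pairs the arrays. The replicate block left 5 of the 6 and 8 of the 29 past the threshold in the knockdown comparison.

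Signs turned for EXPA15 in the AtSPP-overexpressed lines after quantile normalization (-8.76e-04), centring on array medians (-1.44e-04) and without Col-0 replicate 3 (-1.78e-05; the fits without 1 array reached 4.20e-05). They turned for XTH33 after centring on array medians, to -2.26e-04 in the knockdown lines and 2.91e-04 between the transgenic kinds. For EXLB1 they turned after that centring to -1.28e-04 in the AtSPP-overexpressed lines, and after quantile normalization to 1.62e-04 in the knockdown lines and -3.44e-05 between the transgenic kinds. The difference of EXGT-A3 between the transgenic kinds became 0 after quantile normalization. Centring on array medians subtracts the same value from every probe set of an array. After it, the median difference over all probe sets was -1.59e-04 in AtSPP-overexpressed plants against Col-0, where it was 1.29e-07 as deposited. It was -5.52e-04 in the knockdown lines (-3.11e-07 as deposited) and 3.94e-04 between the transgenic kinds (4.89e-07). The cause of the changes at the other settings was not tested. EXLA1, EXPA8, EXGT-A3, XTH16 and XTH18 kept the sign of their differences from Col-0 at every setting run in both comparisons. Each of the 6 genes has 1 probe set, so averaging probe sets left their values unchanged, and signal over background is unknown.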
